A study of Homo sapiens with 4 samples.

Results

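Oxidative phosphorylation is carried out by 5 protein complexes of the inner mitochondrial membrane, and the nuclear genes for their subunits were measured here by RNA-seq in DU145, an established human prostate cancer cell line. A gene row was taken when its symbol began with NDUFA, NDUFB, NDUFC, NDUFS or NDUFV and a number, with UQCR, with COX4 to COX8 or with ATP5, or was SDHA, SDHB, SDHC or SDHD. Of 19871 gene rows, 87 matched, and 85 stayed after the pseudogenes ATP5EP2 and UQCRBP1 were left out. There were 41 rows for complex I, 4 for complex II, 9 for complex III, 13 for complex IV and 18 for complex V. The naming rule does not select on expression. It also takes 8 rows that are not established subunits, namely NDUFA6-AS1, NDUFV2-AS1, NDUFB2-AS1, NDUFA4L2, UQCRHL, ATP5L2, ATP5S and ATP5SL, which leaves 77 established ones. COX7A2L, a factor of supercomplex assembly, was counted among these 77. NDUFA4 was counted with complex I by its name, although its protein is now assigned to complex IV. The subunits encoded by mitochondrial DNA are not analysed here.

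The study compared control cells carrying pLKO, the lentiviral backbone used to express hairpins, with cells in which TAZ was knocked down. TAZ is the product of WWTR1, a coactivator of the Hippo pathway that has no DNA-binding domain of its own and acts largely through TEAD transcription factors. Each group had 2 libraries of poly-A selected RNA from cells grown in DMEM with serum. Both knockdown libraries came from cells with TAZ hairpins, and 2 independent hairpins were used. If the 2 libraries carry different hairpins, any difference between hairpins lies inside the knockdown spread. The labels do not say which library carries which hairpin, nor whether the pair in a group was grown as separate cultures. The p-values therefore cover the spread among 4 libraries alone. That spread may be technical only, or may also hold differences between cultures or hairpins.

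As background, complexes I and II pass electrons from NADH and succinate to ubiquinone, complex III passes them on to cytochrome c, and complex IV passes them to oxygen. Complexes I, III and IV pump protons, and complex V, the ATP synthase, makes ATP from the returning flow. Many nuclear genes for these subunits share promoter elements bound by NRF1, by ETS factors such as GABP, and by YY1.

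Control libraries 1 and 2 held 13681392 and 11687727 reads, and knockdown libraries 1 and 2 held 14814918 and 12078623. Values below are the authors' normalized read counts, and a ± after a count is the SD over the 2 libraries of a group. WWTR1 had 2508 and 3626 in the controls against 839 and 719 after knockdown, so that the knockdown mean was 25.4% of the control mean. Its log2 fold change was -1.96 ± 0.20 (SE), with an adjusted p of 0.0086 in limma, and its groups did not overlap. The epithelial markers KRT8, KRT18, EPCAM and CDH1 went both ways. Their sum, carried by the keratins, was 29246 and 40419 in the controls against 25992 and 16218 in the knockdown libraries. KRT8 had 18494 and 24944 against 14618 and 8485, and KRT18 was likewise lower in both knockdown libraries. EPCAM had 520 and 661 against 709 and 1061. CDH1 had 820 and 1328.5 against 2296 and 1354.9. It was also higher in both knockdown libraries than in both controls, but control 2 and knockdown 2 were nearly equal. Of the leukocyte list, PTPRC and LYZ were at 0 or 0.886 in each library and CD74 at 552, 539, 629 and 320 in the order of controls and knockdown libraries, CD3E is not analysed here, and the list summed to between 320 and 630. The endothelial list summed to at most 23.0, and the fibroblast list, for which DCN is not analysed here, to between 52.9 and 169.

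No member passed the test between knockdown and control in any fit. Of the 85 rows, 84 were tested, and ATP5E, the epsilon subunit of the ATP synthase, was not, with 3.71 in control 1 and 0 in the other libraries. limma on log2(normalized count + 1) called 0 of the 84 at an adjusted p under 0.05, against 0.0113% of the 17737 genes tested. The adjusted p-values of the members ranged from 0.690 to 1.0. At an unadjusted p under 0.05, limma found 3 members, NDUFS7, COX6B1 and ATP5D, all with a lower mean in the knockdown, against 7.05% of all genes tested in either direction, 2.72% with a lower mean and 4.33% with a higher one. edgeR on recovered reads also called 0 members, against 0.0564% of genes, with 3 of them at an unadjusted p under 0.05 and a smallest adjusted p of 0.680. DESeq2 called 0, against 0.534% of genes, with a smallest adjusted p of 0.786. In the authors' deposited table, an adjusted p was given for 77 members, 0 were under 0.05 against 0.537% of genes, 1 had an unadjusted p under 0.05, and the smallest adjusted p was 0.776.

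Most members, but not all, shared the sign of a small difference. The knockdown mean was the lower one for 65 of 84 members, or 77.4%, against 51.0% of all genes tested. Both knockdown libraries lay below both controls for 40 members, or 47.6%, against 19.0% of all genes, and above both for 6 members, or 7.14%, against 18.4%. The median log2 fold change of the members was -0.11, and that of all genes tested was -0.0075. The median standard error of a single member's log2 fold change was 0.169 among members with a mean count of at least 10, so the typical difference was smaller than the error of a single gene.

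**Figure D1:**
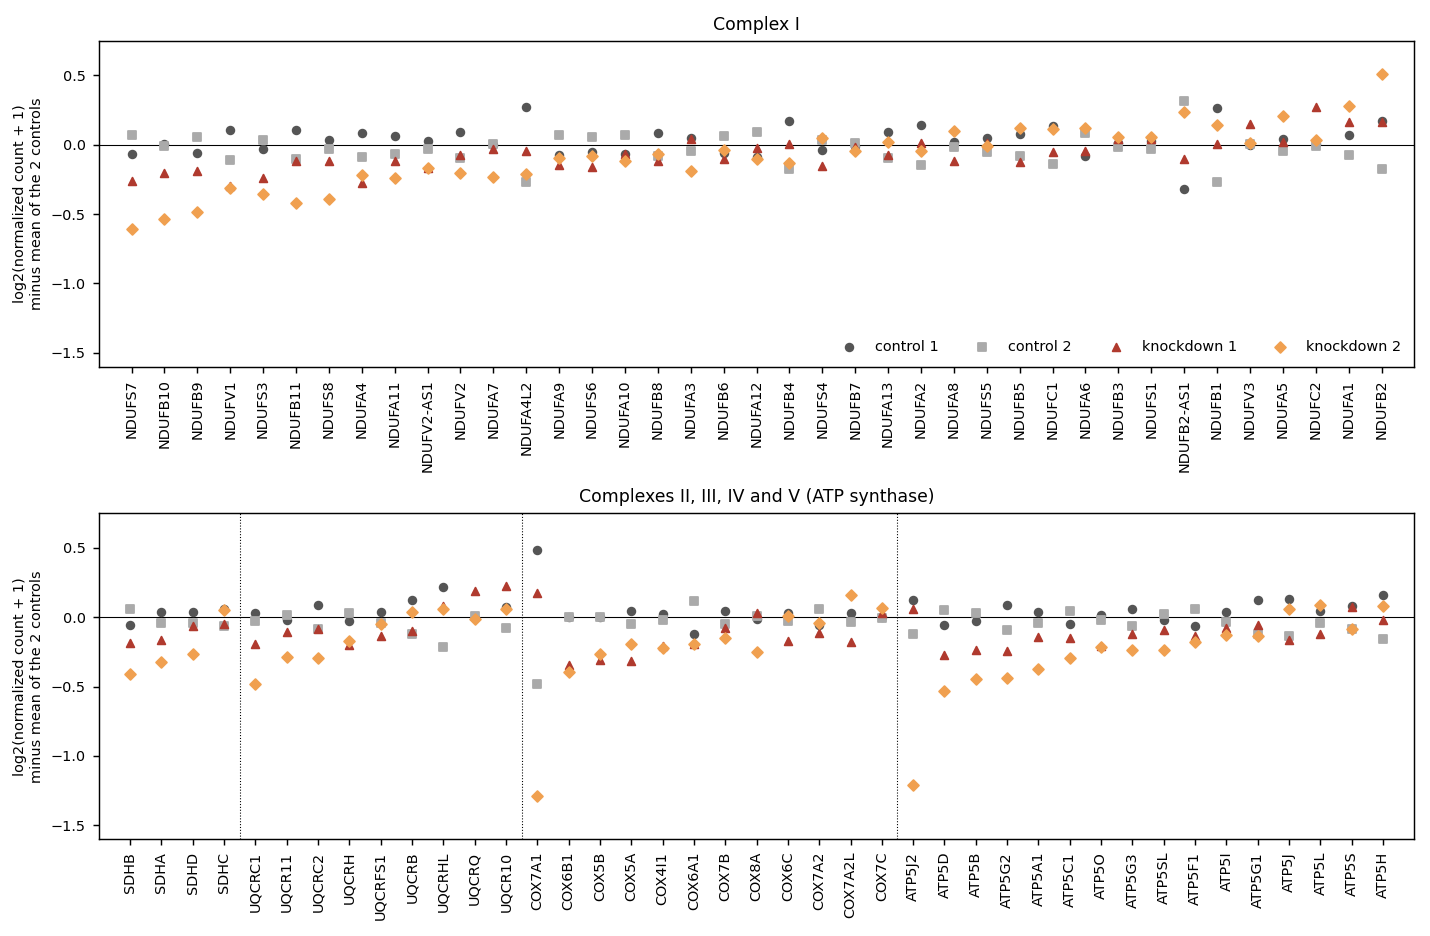
Members with a mean normalized count of at least 10, except 1 that is left out, by complex: log2(normalized count + 1) in each of the 4 libraries minus the mean of the 2 controls. Most members have both knockdown symbols below the 0 line, and for 40 of the 84 tested members both lie below both controls.

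Short transcripts and transcripts rich in G and C had lower fold changes across the whole table, and both properties are given here beside the group values. The members had a median transcript length of 1263 bases. Among all genes tested, the shortest of 4 equal length bins (192 to 2110 bases) had a median log2 fold change of -0.12, and 29.8% of its genes had both knockdown libraries below both controls. The 58 members in that bin had a median of -0.11. The 11 members of the next bin had -0.18, against -0.059 for all genes there. By GC content, all genes ran from 0.11 in the lowest of 4 equal bins to -0.13 in the highest, and the members from -0.066 (16 members) over -0.0086 (29) and -0.15 (22) to -0.29 (14). Across 81 members, fold change and GC content had a Pearson r of -0.46 and a Spearman rho of -0.457, against -0.251 and -0.301 over 15004 genes. These are descriptions across genes that share the same 4 libraries, and genes are not independent replicates. With a smooth trend in length and GC content removed, the median of 81 members was -0.078 and that of all genes -0.016. Then 54 members had the lower mean in the knockdown, against 52.7% of all genes. There were 34 members that had both knockdown libraries below both controls, against 18.6% of all genes, and 8 above both, against 16.4%.

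**Figure D2:**
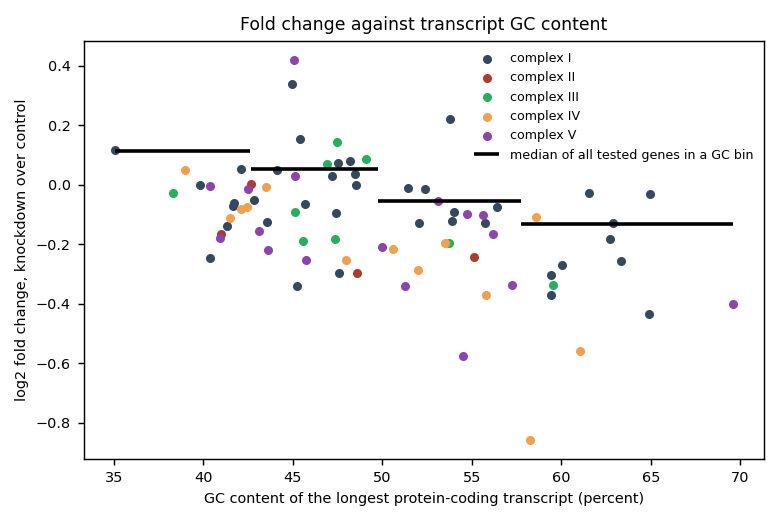
log2 fold change, knockdown over control, of each member against the GC content (percent) of its longest protein-coding transcript, with symbols coloured by complex. Black lines give the median of all genes tested in each of 4 GC bins. The members were lowest in the bin with the highest GC content, with a median of -0.29.

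The promoter windows hold letters of the elements this family is known for, and stretches that carry them are printed here for members whose values follow. Sequences are from RefSeq, build GRCh38.p14, 5′ to 3′ along the strand of the gene, with the motif letters in capitals and positions counted from the annotated start of the gene. A stretch from 200 bases before the start of SDHA (chr5:218120-218319, plus strand) holds 4 matches to the NRF1 letters, which are GCGCA, any base and GCGC. One from SDHD (chr11:112086753-112086832, plus strand) holds an NRF1 match and, on the other strand, the ETS letters CCGGAAG. UQCRC1 (chr3:48609657-48609716, minus strand) has an NRF1 match on the other strand, and COX5B (chr2:97646002-97646051, plus strand) has an ETS match on the strand shown.
SDHA: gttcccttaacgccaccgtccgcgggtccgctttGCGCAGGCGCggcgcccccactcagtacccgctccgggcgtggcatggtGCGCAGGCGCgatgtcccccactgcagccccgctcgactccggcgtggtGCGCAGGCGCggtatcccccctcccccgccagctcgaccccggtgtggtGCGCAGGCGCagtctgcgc
SDHD: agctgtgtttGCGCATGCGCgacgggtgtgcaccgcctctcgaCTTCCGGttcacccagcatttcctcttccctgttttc
UQCRC1: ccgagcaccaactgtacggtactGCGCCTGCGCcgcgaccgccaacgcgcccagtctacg
COX5B: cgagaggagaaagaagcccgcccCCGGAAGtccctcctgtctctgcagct
The YY1 letters AANATGGCG lay just after the start in SDHB (chr1:17054003-17054032, minus strand), NDUFS7 (chr19:1383914-1383943, plus strand) and UQCRC1 (chr3:48609604-48609633, minus strand), and the same 9 letters were found in all 3.
SDHB: gtcaggagccAAGATGGCGgcggtggtcgc
NDUFS7: ggccgaggccAAGATGGCGgtgctgtcagg
UQCRC1: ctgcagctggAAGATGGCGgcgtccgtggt

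A promoter window of 300 bases, 250 before the start and 50 after, was found by symbol for 68 of the 85 members. On either strand, the NRF1 letters were in 15 windows (22.1%), against 10.5% of the windows of tested protein-coding genes and 6.29% of all 27305 windows. The ETS letters were in 19 (27.9%), against 17.2% and 10.7%, and the YY1 letters in 16 (23.5%), against 6.06% and 3.37%. Of the 16 members with the YY1 letters, 14 had a match after the start, 11 of them on the strand of the gene, and 2 had one upstream. The YY1 letters hold ATG, and whether these matches lie on a start codon was not checked. At least 1 of the 3 was in 38 windows, of which 18 of 35 were from complex I, 3 of 3 from complex II, 6 of 7 from complex III, 5 of 11 from complex IV and 6 of 12 from complex V. The TEAD letters GGAATG were in 6 windows (8.82%), against 11.1% of tested protein-coding genes and 14.1% of all. The NRF1 letters read nearly the same on both strands, and no motif letters were counted as sites. Members with a motif were set beside members without it, with no test. Their median log2 fold changes were -0.12 and -0.11 for NRF1, -0.11 and -0.12 for ETS, and -0.13 and -0.10 for YY1. For TEAD they were -0.25 over 6 members and -0.11 over 61.

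Complex I, the NADH dehydrogenase, splits into 7 nuclear core subunits, which hold its flavin and iron-sulphur centres and the ubiquinone site, and the accessory subunits around them. Counts by complex, here and below, stand beside 51.0% of all genes tested with a lower mean, 19.0% below both controls and 18.4% above. In the shortest length bin 29.8% of all genes lay below both. In the knockdown 6 of the 7 core members had the lower mean, 4 had both knockdown libraries below both controls and 1 above. Their median log2 fold change was -0.26. The other 34 rows had a median of -0.057, with 12 (35.3%) below both controls and 4 (11.8%) above. With the length and GC trend removed the medians were -0.15 and 0.017.

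NDUFS7, the core subunit next to the ubiquinone site, had 905 and 994 in the controls against 790 and 622 after knockdown. Its groups did not overlap, and knockdown 2 was the lower of the knockdown pair. The mean was 950 ± 62.5 in the controls and 706 ± 119 in the knockdown, a log2 fold change of -0.44 ± 0.18 (SE). Its limma adjusted p was 0.690, the smallest among the complex I rows.

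NDUFV1, which binds NADH and the flavin, had 2000 and 1725 in the controls against 1510 and 1500, a log2 fold change of -0.30 ± 0.16 and an adjusted p of 0.733 in limma. NDUFS3 had 779 and 813 against 676 and 622, and NDUFS8, which carries iron-sulphur centres, 2085 and 1998 against 1880 and 1555. In all 3 the groups did not overlap. NDUFV2, an iron-sulphur partner of NDUFV1, had 1419 and 1246 against 1264 and 1153, with overlapping groups. NDUFS1, the largest core subunit, had 1013 and 972 in the controls against 1023 and 1034 after knockdown, so it lay slightly above, with a log2 fold change of 0.051 ± 0.16. With the length and GC trend of the longest transcript removed, NDUFS7 was at -0.27, NDUFV1 at -0.15 and NDUFS3 at -0.25. NDUFS8 was then at -0.033, NDUFV2 at -0.15 and NDUFS1 at -0.28.

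Among the accessory subunits the smallest p-values belonged to NDUFB10 and NDUFB9, both of the membrane arm. NDUFB10 had 1275 and 1262 in the controls against 1099 and 877 after knockdown (log2 fold change -0.37 ± 0.17, limma adjusted p 0.714). NDUFB9 had 1825 and 1981 against 1664 and 1357 (log2 fold change -0.34 ± 0.17, the same adjusted p). Both were lower in each knockdown library, with knockdown 2 the lowest of the 4. With the length and GC trend removed, NDUFB10 was at -0.17 and NDUFB9 at -0.33. At the other end NDUFB2, an accessory subunit of the membrane arm, had the highest log2 fold change of the established complex I subunits, 0.34 ± 0.24. Its values were 193 and 152 against 192 and 244, so its groups overlapped. The 5 complex I rows with both knockdown libraries above both controls were NDUFA1, NDUFC2, NDUFV3, NDUFS1 and NDUFB3, with log2 fold changes between 0.050 and 0.22. These 5, NDUFB2 and the extremes named for other complexes were picked after their values were seen.

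The library kit does not mark strand, so reads of NDUFA6, NDUFV2 and NDUFB2 cannot be told apart from those of their antisense rows NDUFA6-AS1, NDUFV2-AS1 and NDUFB2-AS1. The antisense rows were low. NDUFA6-AS1 had 14.8, 8.05, 4.43 and 5.21 in control 1, control 2, knockdown 1 and knockdown 2, and the lowest log2 fold change of all members, -1.04 ± 0.56.

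**Figure D3:**
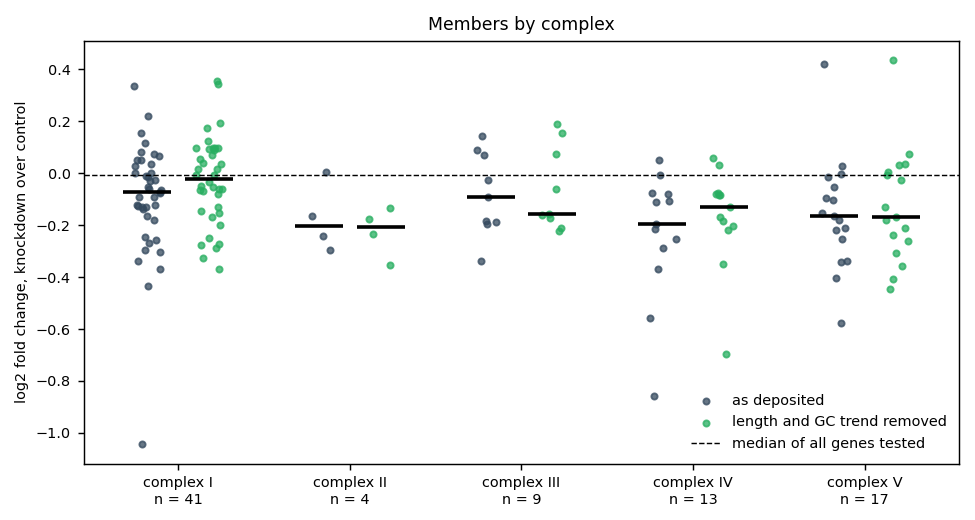
log2 fold change, knockdown over control, of each tested member by complex, as deposited and with the length and GC trend removed. Bars mark the medians, which as deposited were -0.071 for complex I, -0.20 for complex II, -0.091 for complex III, -0.20 for complex IV and -0.16 for complex V, and the dashed line marks the median of all genes tested.

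Complex II, succinate dehydrogenase, also belongs to the citric acid cycle, and all of its 4 subunits are nuclear. In 3 of 4 both knockdown libraries lay below both controls, against 19.0% of all genes tested. SDHA, the flavoprotein that oxidizes succinate and whose promoter holds the 4 NRF1 matches, had 4004 and 3788 in the controls against 3476 and 3122 after knockdown. That is 3896 ± 153 against 3299 ± 250, a log2 fold change of -0.24 ± 0.16 with a limma adjusted p of 0.783.

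SDHB, the iron-sulphur subunit, had 1050 and 1139 against 963 and 822 (log2 fold change -0.30 ± 0.17, limma adjusted p 0.740). SDHD, a membrane anchor, had 1143 and 1085 against 1065 and 927 (log2 fold change -0.16 ± 0.17, limma adjusted p 0.868). Both were lowest in knockdown 2. SDHC, the other membrane anchor, had 1514 and 1388 against 1405 and 1503, so that its groups overlapped and its log2 fold change was 0.0035 ± 0.16. SDHC has by far the longest annotated transcript of the 4, 13566 bases, and with the length and GC trend removed its log2 fold change was -0.35. That value rests on the annotated length, and the transcript used in these cells was not examined. With the trend removed, SDHA, SDHB and SDHD were at -0.13, -0.24 and -0.18.

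Complex III, the cytochrome bc1 complex, had 6 of 9 members with a lower mean, 4 below both controls and 0 above both. The shares of all genes tested were 51.0%, 19.0% and 18.4%. UQCRC1, a core subunit that faces the matrix, stood lowest of the complex. It had 2654 and 2551 in the controls against 2278 and 1860 after knockdown, a log2 fold change of -0.34 ± 0.17 with a limma adjusted p of 0.714. Its partner UQCRC2 had 1919 and 1704 against 1708 and 1475, with overlapping groups. UQCRFS1, the Rieske iron-sulphur protein, had 1523 and 1438 against 1350 and 1430 (log2 fold change -0.091 ± 0.16), so control 2 and knockdown 2 were nearly equal. With the length and GC trend removed, UQCRC1 was at -0.16, UQCRC2 at -0.22 and UQCRFS1 at -0.17.

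The small subunits of complex III went both ways. UQCR11 had 1816 and 1867 against 1712 and 1509, and UQCRH, the hinge protein near cytochrome c1, had 1481 and 1541 against 1318 and 1342. Neither overlapped between the groups. UQCR10 had 744 and 669 against 826 and 735, with the higher mean in the knockdown but overlapping groups. UQCRB had 1962 and 1656 against 1686 and 1854, also overlapping.

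Complex IV, cytochrome c oxidase, had the smallest pooled within-group SD of the library medians among the 5 complexes, 0.011. Single members could be less even, as COX7A2L with 644 and 816 in the knockdown libraries. Of 13 members 12 had a lower mean, 7 lay below both controls and 1, COX7C, above both, against 51.0%, 19.0% and 18.4% of all genes tested. COX6B1, a subunit on the intermembrane side, had 2184 and 2187 in the controls against 1722 and 1658 after knockdown. The controls were nearly equal, and both knockdown libraries were well below. The means were 2185 ± 2.09 and 1690 ± 45.3, a log2 fold change of -0.37 ± 0.16 with a limma adjusted p of 0.690.

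COX5B, which binds zinc and whose promoter holds the ETS match, had 862 and 860 against 697 and 715 (log2 fold change -0.29 ± 0.16, limma adjusted p 0.743). COX5A had 1135 and 1064 against 884 and 961 (log2 fold change -0.25 ± 0.16, limma adjusted p 0.774). COX4I1, the largest nuclear subunit and a site of regulation by ATP, had 3170 and 3073 against 2706 and 2673 (log2 fold change -0.21 ± 0.16, limma adjusted p 0.797). In these 3 the groups did not overlap. COX7C had 2177 and 2160 against 2214 and 2275, a log2 fold change of 0.049 ± 0.15. With the length and GC trend removed, COX6B1 was at -0.22, COX5B at -0.19 and COX5A at -0.20. COX4I1 was then at -0.13 and COX7C at 0.030.

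Several complex IV subunits exist as paralogues, some typical of muscle or testis. Levels of different genes are given per length, as reads scaled to the length of the shortest principal transcript and to the library total (RPKM), in ranges over the 4 libraries. COX6B1 lay at 302 to 396 and its paralogue COX6B2, known from testis, at 0.847 to 2.15. COX7A2 lay at 85.2 to 93.6, COX7A2L, a factor of supercomplex assembly, at 44.2 to 58.4, and COX7A1, the heart and muscle form, at 0.435 to 1.73. NDUFA4 lay at 29.1 to 38.6 and NDUFA4L2, its hypoxia-inducible relative, at 0.946 to 1.49. In each of these sets the order was the same in all 4 libraries. COX6A1 was at 385 to 467 and COX4I1 at 292 to 353, and their paralogues COX6A2 and COX4I2 are not analysed here.

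The rarer forms rest on few reads. COX6B2 had normalized counts of 12.1 and 13.8 in the controls against 5.31 and 8.34 after knockdown (log2 fold change -0.86 ± 0.52, limma adjusted p 0.762). COX7A1 had 16.7 and 8.05 against 13.3 and 4.17, and NDUFA4L2 22.3 and 15.0 against 17.7 and 15.6, and both overlapped between groups. NDUFA4 itself had 1043 and 925 against 811 and 844, with no overlap and a log2 fold change of -0.25 ± 0.17. COX7A2 (log2 fold change -0.076 ± 0.16) and COX7A2L (-0.0086 ± 0.18) lay near 0.

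**Figure D4:**
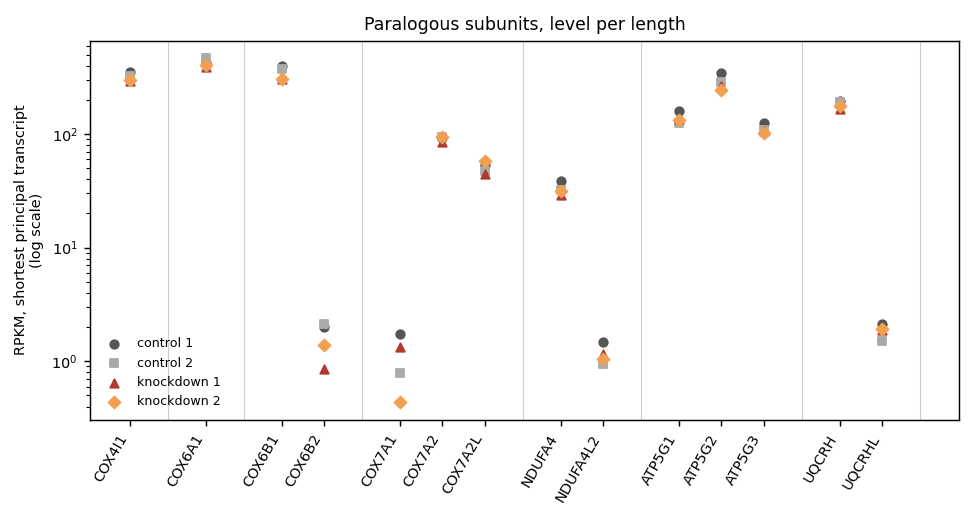
Levels per length of paralogous subunits in each of the 4 libraries (RPKM by the shortest principal transcript, log scale). COX6B2, COX7A1 and NDUFA4L2 lie far below COX6B1, COX7A2 and NDUFA4 in control and knockdown libraries.

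Complex V, the ATP synthase, is made of the F1 head, which makes ATP, and the membrane part with its rotating ring of c subunits. Of 17 tested members 15 had a lower mean, 10 lay below both controls and 0 above both, against 51.0%, 19.0% and 18.4% of all genes tested. The 4 tested subunits of the F1 head, ATP5A1, ATP5B, ATP5C1 and ATP5D, all had both knockdown libraries below both controls, with a median log2 fold change of -0.30. The other 13 members had a median of -0.10, with 6 below both controls. With the length and GC trend removed the medians were -0.24 and -0.025.

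ATP5B, the catalytic beta subunit, had the highest value of any member. It had 13968 and 14564 in the controls against 12133 and 10458 after knockdown, a log2 fold change of -0.34 ± 0.18 with a limma adjusted p of 0.730. ATP5A1, the alpha subunit, had 5385 and 5092 against 4756 and 4052 (log2 fold change -0.25 ± 0.17, limma adjusted p 0.777). Both were lowest in knockdown 2. ATP5D, the delta subunit of the central stalk, had 1238 and 1333 against 1063 and 889 (log2 fold change -0.40 ± 0.17, limma adjusted p 0.690). ATP5C1, the gamma subunit that turns inside the head, had 2012 and 2148 against 1878 and 1699 (log2 fold change -0.22 ± 0.16, limma adjusted p 0.798). With the length and GC trend removed, ATP5B was at -0.26, ATP5A1 at -0.41, ATP5D at -0.17 and ATP5C1 at -0.21.

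The c subunit of the ring is encoded by 3 genes whose mature proteins are the same and whose import sequences differ. ATP5G2 had 3274 and 2889 in the controls against 2601 and 2274 after knockdown (log2 fold change -0.34 ± 0.16, limma adjusted p 0.714). ATP5G3 had 1263 and 1161 against 1111 and 1029 (log2 fold change -0.18 ± 0.16), and ATP5G1 1203 and 1013 against 1062 and 1004 (log2 fold change -0.097 ± 0.17). ATP5G1 alone of the 3 overlapped between groups. With the length and GC trend removed, ATP5G2 was at -0.18, ATP5G3 at -0.36 and ATP5G1 at 0.037. In RPKM by the shortest principal transcript, ATP5G2 lay at 243 to 347, ATP5G1 at 126 to 159 and ATP5G3 at 103 to 125. With the longest transcript in place of the shortest, ATP5G1 lay at 123 to 155, ATP5G2 at 92.8 to 133 and ATP5G3 at 14.9 to 18.2, so the order of ATP5G1 and ATP5G2 depends on the transcript taken.

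Outside the head and ring, ATP5O, which joins the head to the peripheral stalk, had 2519 and 2459 against 2159 and 2145, with no overlap and a log2 fold change of -0.21 ± 0.15. ATP5J2 had 133 and 112 against 127 and 52.1, with overlapping groups and a standard error of 0.38. ATP5J2, ATP5E and NDUFC2, all low for their family, have a read-through gene in RefSeq that includes them, and the sources used here do not say how such reads were counted. In addition 48 members have at least 1 pseudogene in RefSeq named after them, 204 in all and 18 for COX6C, so single values can hold or lack reads of a near copy.

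As a share of all reads in a library, the members took 0.862 and 0.792% in controls 1 and 2 and 0.747 and 0.732% in knockdown libraries 1 and 2. The share was highest in control 1 and lower in both knockdown libraries than in either control. That order held for each complex. Complex V took 0.304, 0.282, 0.258 and 0.245% in the same order of libraries, more than the 0.258, 0.231, 0.227 and 0.225% of complex I with its 41 rows. The F1 head alone, with ATP5B, the member of highest value, took 0.178, 0.172, 0.151 and 0.136%. These shares are not scaled to transcript length, so they do not rank the complexes by level. Complex IV took 0.141, 0.136, 0.123 and 0.128%, complex III 0.0986, 0.0879, 0.0863 and 0.0843%, and complex II 0.0609, 0.0551, 0.0528 and 0.0507%.

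**Figure D5:**
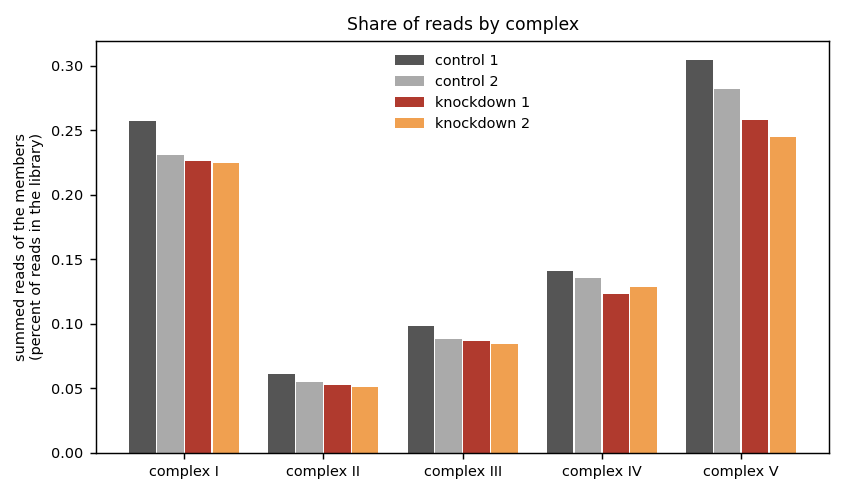
Summed reads of the members of each complex as a percent of all reads, 1 bar per library. Within each complex both knockdown bars are lower than both control bars, from 0.304 and 0.282% to 0.258 and 0.245% for complex V.

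Over all members the lower median was seen against each control, but this did not hold in every complex. Over all members the median log2 difference of knockdown 1 was -0.14 from control 1 and -0.081 from control 2, and that of knockdown 2 was -0.18 and -0.13. These share their libraries and are given side by side only. The controls differed by a median of -0.065 (control 2 minus control 1) and the knockdown libraries by -0.037 (knockdown 2 minus knockdown 1). The pooled within-group SD of the library medians was 0.043 for all members, 0.030 for complex I, 0.079 for complex II, 0.048 for complex III, 0.011 for complex IV and 0.045 for complex V. Complex I had -0.13 (knockdown 1) and -0.076 (knockdown 2) from control 1, and -0.035 and -0.078 from control 2. Complex IV ranged from -0.24 to -0.17 over the 4 pairs and complex V from -0.23 to -0.098. Complex II ranged from -0.33 to -0.075, with the lower values in knockdown 2. Complex III had -0.17 and -0.14 from control 1 but 0.0039 and -0.017 from control 2, so the lower median was seen from control 1 and not from control 2. The complex III median log2 fold change was -0.050 without control 1, -0.049 without knockdown 1 and -0.15 without control 2. With the length and GC trend removed, the complex III medians of knockdown 1 and 2 were -0.098 and -0.17 from control 1 and -0.048 and -0.12 from control 2. Those of complex I were then -0.051 and -0.044 from control 1 and 0.022 and -0.018 from control 2.

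Genes that work beside the subunits were taken from lists of related genes, and none passed the limma test at an adjusted p under 0.05. Counts below or above both controls in these lists stand beside 19.0% and 18.4% of all genes tested. Of 6 tested genes that the naming rule does not reach, 4 had a lower mean. In 2 of them both knockdown libraries lay below both controls, and the median log2 fold change was -0.093. CYC1, C14orf2, USMG5 and NDUFAB1 encode subunits. The other genes of this list, CYCS (cytochrome c) and ATPIF1 (an inhibitor of the ATP synthase), do not. CYC1, the haem protein cytochrome c1 of complex III, had 2696 and 2776 against 2561 and 2061 (log2 fold change -0.25 ± 0.17, limma adjusted p 0.785). C14orf2, a small subunit of the ATP synthase, had 1066 and 1105 against 932 and 920 (log2 fold change -0.23 ± 0.16, limma adjusted p 0.794).

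Factors that assemble the complexes were mixed, with shares below both controls near or under that of all genes. Of 14 complex I assembly factors 11 had a lower mean, 3 (21.4%) lay below both controls and 1 above, with a median of -0.17. NDUFAF1 was 216 ± 38.5 in the controls and 152 ± 37.7 in the knockdown (log2 fold change -0.52 ± 0.26, limma adjusted p 0.714), and ECSIT was 467 ± 1.10 against 379 ± 33.6. Of 36 factors for complexes II to V, 25 had a lower mean, 5 (13.9%) lay below both controls and 3 above, with a median of -0.058. SURF1, needed for complex IV, was 622 ± 13.6 against 482 ± 35.4, and UQCC1, a complex III factor, had a log2 fold change of -0.36. Of 10 supercomplex and cristae factors, 2 lay below both controls and 3 above, with a median of 0.0053. STOML2 was 5093 ± 128 against 3865 ± 483 (log2 fold change -0.40 ± 0.17, limma adjusted p 0.690), whereas OPA1, a fusion GTPase, was 1044 ± 136 against 1289 ± 104.

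Of 17 tested regulators of nuclear respiratory genes and mitochondrial DNA, 11 had a lower mean, 4 (23.5%) lay below both controls and 0 above, with a median of -0.080. POLRMT, the mitochondrial RNA polymerase, was 2231 ± 130 against 1546 ± 392 (log2 fold change -0.55 ± 0.19, limma adjusted p 0.637), and C10orf2, the mitochondrial helicase, had a log2 fold change of -0.42. Of 17 genes of the citric acid cycle and pyruvate dehydrogenase, 13 had a lower mean, but 1 lay below both controls and 2 above, with a median of -0.055. IDH3B was 1780 ± 33.0 against 1398 ± 140 and CS, citrate synthase, had a log2 fold change of 0.15. Of 9 hypoxia-responsive mitochondrial genes and their regulators 3 lay below both controls and 2 above. BNIP3, a mitophagy receptor, was 3977 ± 504 against 2404 ± 102 (log2 fold change -0.72 ± 0.17, limma adjusted p 0.355), and EPAS1, the HIF-2 alpha subunit, had a log2 fold change of 0.55 ± 0.20 (limma adjusted p 0.650).

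Ribosomal protein genes, which are also short, gave a yardstick from outside the respiratory chain. Of 76 tested mitochondrial ribosomal proteins 62 had a lower mean and 36 (47.4%) lay below both controls, with a median log2 fold change of -0.13. MRPL23 had the smallest p, with a log2 fold change of -0.76 ± 0.22 and a limma adjusted p of 0.540. Of 83 tested cytosolic ribosomal proteins 75 had a lower mean, 71 lay below both controls and 0 above, with a median of -0.34. RPS12 had a log2 fold change of -0.48 and a limma adjusted p of 0.620. With the length and GC trend removed the medians were -0.096 and -0.26, beside -0.078 for the respiratory chain members. Then 18 mitochondrial and 64 cytosolic ribosomal protein genes lay below both controls, of 76 and 83, beside 34 of 81 respiratory chain members and 18.6% of all genes. No difference between these lists and the respiratory subunits was tested. Whether length, GC content or the lower keratin and higher EPCAM and CDH1 values of the knockdown libraries have a part in the members' values was not tested. In bulk RNA, fewer cells of a kind and less RNA per cell cannot be told apart.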

How the data were processed

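RNA-seq of 2 control and 2 knockdown libraries was analysed from 1 table. The authors deposited, per gene symbol and library, a signal in the form of normalized read counts, which per the file headers stands beside a mean signal, the authors' log2 fold change and its error, a Wald score, a p-value and its adjusted form. The submitters' processing notes list STAR, DESeq2 and the build hg19 without saying what each did. The annotation and the counting tool were not given in the sources used here.

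In each library 100% of the values were whole multiples of 1 step (within 0.001 reads), so reads were recovered as counts. Of 19897 rows, 26 with symbols turned into dates (0.153 to 0.191% of reads) were left out. The table holds no unused library columns. Genes with a value of at least 1 in at least 2 libraries (17737) were tested with limma 3.58.1 (R 4.3.3, eBayes with trend) on log2(value + 1), with p-values adjusted over all of them by Benjamini-Hochberg at 0.05, and log2 fold changes are on that scale and understate low genes. edgeR 4.0.16 and DESeq2 1.42.0 on the recovered reads, another scaling, pseudocounts of 0.5 and 10, a mean of at least 10, no filter, a natural spline trend (4 df) in transcript length and GC content, a block for replicate number and fits without each library in turn were alternatives. Only the limma fit, without block or trend, was tested on simulated data.

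Transcript lengths and GC content came from GENCODE 29 and promoters from RefSeq GRCh38.p14, another build than hg19, so no coordinates of the authors' build are printed. Named genes were the subunits of complex II, the core subunits, paralogue groups, in complexes I, III, IV and V the 3 smallest p-values and 2 highest means, and in other lists the 2 smallest p-values. The values of 1 named member are not reported here. Members and lists were chosen with earlier results of these data known. Interval and depth statements cover counting error and the spread of 2 libraries only.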

Additional observations from a re-analysis of the deposited data

How the results depend on the processing

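0 members were called under each of the 16 alternatives run. The count of all genes called, 2, was 10 with edgeR, 69 with DESeq2, 7 with limma and a replicate block, 163 with edgeR and a replicate block (chosen after seeing the data), and 0 to 0 with a library left out. Same-numbered libraries did not deviate together over all genes tested (correlation -0.039). With 2 libraries per group this cannot decide whether the numbers pair libraries, and the labels do not say. The block left all complex medians as they were. WWTR1 was not called with any library left out (log2 fold change -2.22 to -1.69).

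With a library left out, median log2 fold changes ranged from -0.12 to -0.046 for complex I, -0.29 to -0.11 for complex II, -0.15 to -0.049 for complex III, -0.20 to -0.13 for complex IV and -0.21 to -0.12 for complex V. Once a length and GC trend was taken out, by the longest and by the shortest transcript (the second chosen after seeing the data), they were -0.021 and -0.0078 for complex I, -0.16 and -0.16 for III, and -0.13 and -0.11 for IV. Complex IV was -0.15 with a mean of at least 10 and -0.17 scaled to total reads. Members of complex I below both controls numbered 9 and 8 under the trends against 16, and those above both 3 under total reads against 5. Members of complex III above both numbered 1 under total reads, 2 and 1 under the trends against 0, and of complex IV 0 and 0 under total reads and the longest-transcript trend against 1.

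Signs turned for these genes near 0, under the 2 trends in this order: ATP5G1 0.037 and 0.018, NDUFA4L2 0.098 and 0.080, SDHC -0.35 and -0.35, NDUFS1 -0.28 and -0.0056. SDHC had the same length, 13566 bases, in both trends, so its 2 values are not separate evidence. NDUFS1 had 11819 and 2371 bases. COX7A2L turned to 0.015 under total reads, 0.0020 with edgeR and 0.00035 with DESeq2. With a library left out, ranges crossed 0 for ATP5G1 (-0.22 to 0.027), COX7A1 (-1.29 to 0.17), NDUFA4L2 (-0.40 to 0.15), UQCRB (-0.15 to 0.094), COX7A2L (-0.18 to 0.16) and SDHC (-0.059 to 0.066). The cause was not tested. Another 530 values of single genes kept sign and side of the threshold.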
